A study of Mus musculus with 10 samples.

Results

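The genes described here are 45 genes of the cell division cycle, taken by symbol from the 35275 genes of a table of RNA levels in jejunal epithelial cells of 10 mice. They were divided by function into 23 genes of G1/S control and DNA replication and 22 genes of G2 and mitosis. All 45 were in the table, and all 45 passed the filter on low values (an average of 0.1 FPKM or more across libraries), which 15729 genes passed. FPKM count fragments relative to the length of the gene and the depth of the library, so levels can be set side by side between genes. The libraries still differed in scale, with medians over genes of the ratio to the gene's average library of 0.623 in control mouse 2, 0.722 in KO mouse 3 and 1.00 to 1.31 in the other 8, and the levels below are not corrected for it.

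The study asked what loss of the motor protein MYO5B does to the intestinal epithelium and whether lysophosphatidic acid (LPA), a signalling phospholipid, alters the outcome. Every mouse was an adult C57BL/6 animal of genotype VillinCreERT2;MYO5Bflox/flox, given as male, so the controls carried the floxed alleles and the inducible Cre recombinase too. The comparison was of 3 groups. The 3 control mice (numbers 2, 4 and 5) were given corn oil and left uninduced. The 4 knockout (KO) mice (3, 5, 6 and 7) were given 2 mg of tamoxifen and a vehicle. By their titles, 3 KO + LPA mice (1, 4 and 5) were given 2 mg of tamoxifen and LPA at 3 mg/kg intraperitoneally. The labels of KO + LPA mouse 1 name both vehicle and LPA, so its treatment is less certain. Epithelial cells were taken on day 4 after being mechanically freed from the jejunum, and tamoxifen exposure therefore differed between control and KO mice along with the gene deletion. The villin promoter drives Cre in cells of the intestinal epithelium only, so leukocytes and stromal cells carried over in the preparation kept the gene.

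Dividing cells of the small intestine, both the stem cells of the crypt base and their progeny above them, sit in the crypts, and the progeny stop dividing as they move onto the villus. At the G1/S boundary, cyclin D with CDK4 and cyclin E with CDK2 inactivate the retinoblastoma proteins and release E2F factors, which switch on the genes that license replication origins and supply nucleotides. After replication, cyclin A and cyclin B with CDK1 take the cell into mitosis, and the late genes are switched on by B-MYB and FOXM1, which act with the MuvB complex at the cell cycle genes homology region (CHR) of their promoters.

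The 2 classes differed in these promoter letters. RefSeq promoter windows of the GRCm38.p6 assembly, running from 250 bases before to 50 bases after the gene start (300 bases), were found for 36 of the 45 genes, 19 of the first class and 17 of the second. The windows of Ccnd1, Ccne2, Mcm4, Gins2, Ccna2, Aurkb, Kif20a, Tpx2 and Foxm1 were not analysed here. The E2F motif was searched on either strand as any of 4 forms, the canonical TTCCCGC, the similar form TTGGCGC and the further variants TTCGCGC as well as TTGCCGC. It was found in 12 of 19 G1/S and replication genes (63.2%) and in 3 of 17 G2 and mitosis genes (17.6%), against 18.5% of the 10390 tested genes with a window and 10.9% of all 27025 genes with a window. The CHR letters TTTGAA, on either strand, were found in 2 of 19 G1/S and replication genes (10.5%) and in 11 of 17 G2 and mitosis genes (64.7%), against 14.7% of tested genes and 20.2% of all genes. At least 2 CCAAT boxes were found in 7 of 19 (36.8%) and 10 of 17 (58.8%), against 16.1% of tested genes and 13.3% of all genes. No form contains another. E2f2, Mcm7 and Uhrf1 had a further window at another start, and a gene was counted where any of its windows held the motif. In E2f2 the E2F form lay only in the upstream window. Its CHR letters and at least 2 CCAAT boxes lay only in the downstream window. A match describes these letters and is not evidence that a factor was bound in these cells.

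Windows of the members with the smallest adjusted p in KO against control whose class motif lies in the stretch printed are shown for each class, as examples of the motif found more often in that class. Each runs from 250 bases before to 30 bases into the transcript, 5′ to 3′ on the strand of the gene, with the motif of the class in capitals. Rrm2 (chr12:24708004-24708283, plus strand) holds an E2F form 235 bases before the start, and Mcm3 (chr1:20820283-20820562, minus strand) holds 1 starting 19 bases after it. Cdk1 (chr10:69352883-69353162, minus strand) holds CHR letters 71 and 15 bases before the start, and Ccnb2 (chr9:70421525-70421804, minus strand) holds them 167 bases before and 4 bases after it. The Cdk1 stretch also holds 2 E2F forms, left in lower case, 178 and 130 bases before the start, so this mitotic gene carries the letters of both classes, while the other 3 stretches hold 0 motifs of the other class.
Rrm2: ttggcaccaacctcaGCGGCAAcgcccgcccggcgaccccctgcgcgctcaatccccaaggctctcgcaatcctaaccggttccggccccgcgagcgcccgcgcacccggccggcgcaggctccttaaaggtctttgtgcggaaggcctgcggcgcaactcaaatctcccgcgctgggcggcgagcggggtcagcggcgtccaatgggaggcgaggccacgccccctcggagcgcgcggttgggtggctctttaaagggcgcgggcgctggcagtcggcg
Mcm3: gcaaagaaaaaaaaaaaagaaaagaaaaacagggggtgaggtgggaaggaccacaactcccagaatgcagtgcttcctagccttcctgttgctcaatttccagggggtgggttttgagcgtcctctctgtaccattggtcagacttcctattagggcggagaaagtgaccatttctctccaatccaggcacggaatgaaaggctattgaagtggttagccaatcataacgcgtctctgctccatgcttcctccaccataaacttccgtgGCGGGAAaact
Cdk1: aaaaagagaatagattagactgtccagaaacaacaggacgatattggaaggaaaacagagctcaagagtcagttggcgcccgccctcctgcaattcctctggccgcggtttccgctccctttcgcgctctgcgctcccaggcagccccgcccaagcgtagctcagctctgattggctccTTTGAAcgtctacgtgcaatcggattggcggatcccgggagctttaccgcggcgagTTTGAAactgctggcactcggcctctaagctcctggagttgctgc
Ccnb2: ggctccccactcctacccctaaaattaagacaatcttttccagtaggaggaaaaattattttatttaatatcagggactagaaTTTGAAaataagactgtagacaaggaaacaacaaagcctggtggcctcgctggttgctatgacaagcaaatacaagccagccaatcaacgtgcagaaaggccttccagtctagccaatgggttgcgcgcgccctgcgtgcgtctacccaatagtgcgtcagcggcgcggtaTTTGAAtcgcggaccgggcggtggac

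**Figure D1:**
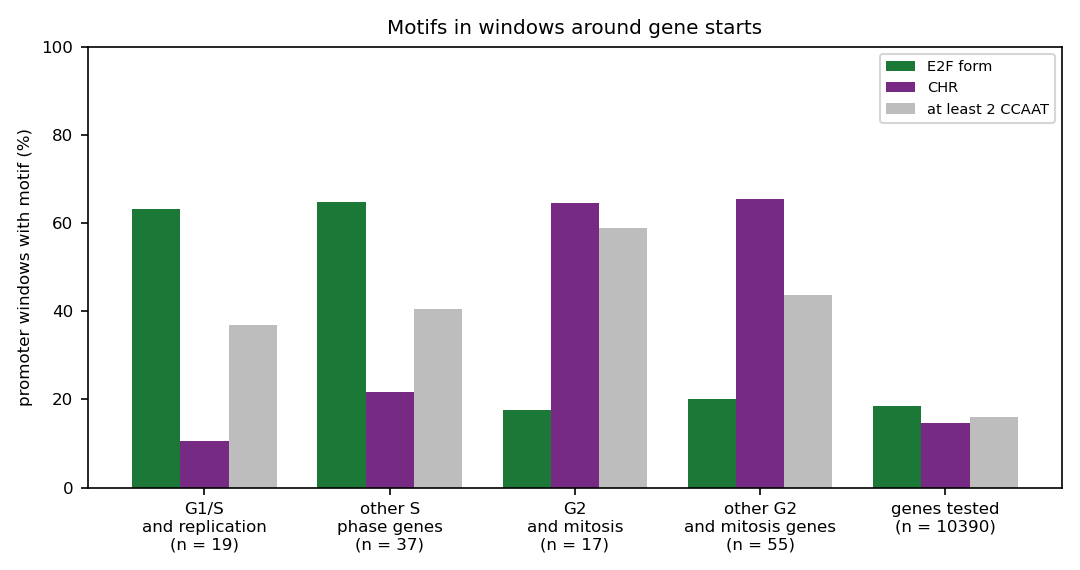
Percentage of promoter windows (y axis, 0 to 100%) that hold an E2F form (green), the CHR letters (purple) or at least 2 CCAAT boxes (grey), for both classes, for other S phase and other G2 and mitosis genes, and for all tested genes with a window, with the number of genes under each set. The E2F bar is 63.2% for G1/S and replication genes and 17.6% for G2 and mitosis genes, and the CHR bars are 10.5% and 64.7%.

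Before the levels are compared, 3 facts about the libraries matter. Between 10949420 and 24470409 reads per library lay on genes. The libraries of control mouse 2 and KO mouse 3 detected 12242 and 12601 genes and had 17.4% and 18.0% of reads on mitochondrial genes, where the other 8 libraries detected 17309 to 18267 genes and had 1.98% to 3.5%. KO mouse 3 and KO + LPA mouse 1 expressed Xist (8.41 and 15.1 FPKM) and gave 0 reads for 4 Y-linked genes, against the label male. Results are therefore given with and without these libraries. Myo5b itself lay at 16.5, 32.0 and 26.1 FPKM in the control libraries, at 10.5 to 13.6 FPKM in the KO libraries and at 10.3 to 11.7 FPKM in the KO + LPA libraries. Enterocyte markers (26 genes) summed to between 23067 and 66428 FPKM in every library, against 3.14 to 14.9 FPKM for 13 markers of stroma and endothelium. No use of strand is stated for the counting. Overlapping genes on the opposite strand had more reads than Ccne2, Mcm7, Gins2, Cdc20 and Kif20a. Such genes had between 9.77% and 42.3% as many reads as Ccnd1, Cdk4, Ccna2, Nusap1 and Tk1. The levels of these 10 members are therefore less certain.

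Cell cycle genes of both classes were higher in KO than in control mice. The log2 fold change was above 0 for 45 of 45 genes, as it was for 63.4% of all genes tested, and its median was 1.28 over the 23 G1/S and replication genes and 1.25 over the 22 G2 and mitosis genes, against 0.29 over all genes tested. Only Rrm2 passed an adjusted p of 0.05 (1 of 45 genes), where 1.13% of all genes tested passed as higher in KO. At an unadjusted p under 0.05, 29 of 45 genes were higher (15 of 23 and 14 of 22), against 11.2% of all genes tested. Every KO library lay above every control library for 19 of 45 genes (9 of 23 and 10 of 22), against 11% of all genes tested. Fragments on the 45 genes together were 0.0939% ± 0.0082 of reads on genes in control mice (SD, n = 3) and 0.225% ± 0.0458 in KO mice (SD, n = 4). In such bulk samples more dividing cells and more RNA per dividing cell cannot be told apart.

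**Figure D2:**
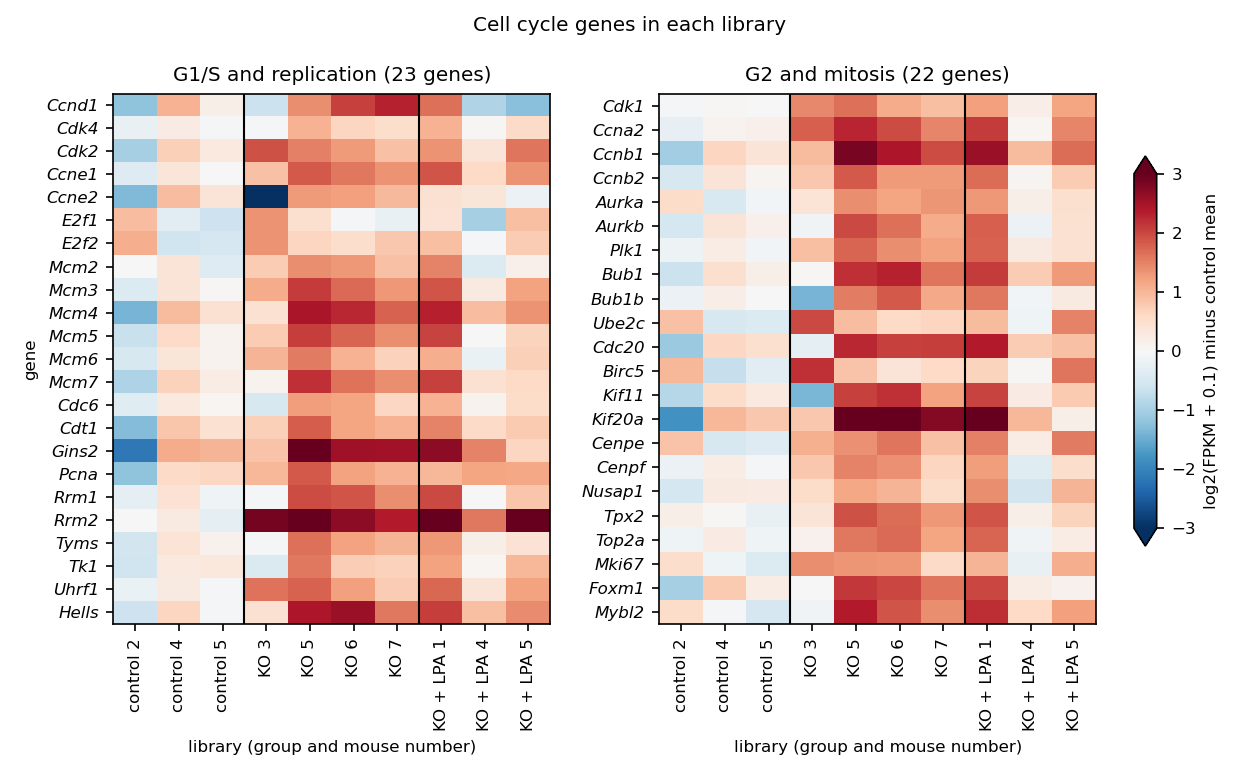
Each row is a gene and each column a library (group and mouse number), and colour gives log2(FPKM + 0.1) minus the mean of the 3 control libraries, from blue (-3) to red (3), with values beyond the scale at its end colours. KO mice 5, 6 and 7 and KO + LPA mouse 1 are red for nearly every gene, KO mouse 3 and KO + LPA mouse 5 are mixed, and KO + LPA mouse 4 is near the controls.

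The largest change among the genes of nucleotide supply was that of Rrm2, the small subunit of ribonucleotide reductase, which makes deoxynucleotides (ENSMUSG00000020649, chromosome 12, 24708241 to 24714146). Rrm2 lay at 7.06, 8.5 and 5.76 FPKM in control mice 2, 4 and 5 against 52.3, 63.2, 45.6 and 37.1 FPKM in KO mice 3, 5, 6 and 7. All 4 KO libraries were well above all 3 control libraries, with a mean 6.97 times that of the controls and a log2 fold change of 2.78 (SE 0.42, limma's adjusted p = 0.0112). Leaving out control mouse 2 and KO mouse 3 gave a value of 2.74 on the log2 scale (limma's adjusted p = 0.0354). Of 10 fits that each left out 1 mouse, the call was lost in 1, without control mouse 5 (limma's adjusted p = 0.077). Its partner Rrm1, the large subunit, lay at 5.72 ± 1.61 FPKM in control mice (SD, n = 3) and 15.8 ± 7.65 FPKM in KO mice (SD, n = 4), and its groups overlapped through KO mouse 3 at 5.35 FPKM. Pcna, the sliding clamp of the replication fork, did not overlap between the groups (17.0, 58.1 and 60.8 FPKM in control mice, 78.8 to 141 FPKM in KO mice), but its log2 fold change of 1.27 fell to 0.76 without the 2 libraries with few detected genes. Tyms, which makes thymidylate, and Tk1, which salvages thymidine, had log2 fold changes of 0.96 and 0.64, and their KO libraries overlapped the controls.

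The 9 licensing and helicase genes had a median log2 difference of 1.33. Mcm2 to Mcm7 encode the 6 subunits of the replicative helicase ring, and their log2 fold changes lay between 1.08 and 1.73. Mcm3 (chromosome 1, 20802968 to 20820312) lay at 3.56, 6.23 and 4.88 FPKM in the controls against 10.4, 20.8, 15.6 and 11.9 FPKM in KO mice, with no overlap (1.55, SE 0.42, limma's adjusted p = 0.0898). The groups did not overlap for Mcm2, Mcm5 and Mcm6 either, whereas for Mcm4 and Mcm7 KO mouse 3 fell within the control range. Reads on Mcm7 may not have been told apart by strand from those on Cops6, an overlapping gene on the opposite strand with more reads. Of the loading factors that place the ring on origins, Cdt1 had a log2 fold change of 1.18 and Cdc6 0.64, both with overlapping groups. Gins2, of the GINS complex that completes the active helicase, had 0 reads in control mouse 2, so its log2 fold change of 2.24 depended on the pseudocount, and the 8 other libraries gave 1.62. The 2 genes that copy chromatin marks after the fork were also higher, Uhrf1, which recruits the maintenance DNA methyltransferase, at 1.35 and the remodeller Hells at 1.77. Uhrf1 (chromosome 17, 56303321 to 56323486) lay at 5.43, 7.48 and 5.94 FPKM in the controls against 19.5, 21.6, 14.8 and 10.6 FPKM in KO mice, and its groups did not overlap (SE 0.38, limma's adjusted p = 0.0977).

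The 7 G1/S regulators had the lowest median of the roles, 0.83. Cyclin E1 (Ccne1, chromosome 7, 38097984 to 38107534) lay at 1.49, 2.57 and 2.00 FPKM in the controls against 3.74, 7.34, 6.12 and 5.14 FPKM in KO mice, with no overlap and a log2 fold change of 1.41 (SE 0.41, limma's adjusted p = 0.11). Its kinase Cdk2 did not overlap either (1.79 to 6.12 FPKM against 6.80 to 14.2 FPKM). Cyclin D1 (Ccnd1), the cyclin that responds to growth signals, varied widely in both groups, from 1.65 to 8.13 FPKM in control mice and from 2.49 to 19.9 FPKM in KO mice, and its kinase Cdk4 had a log2 fold change of 0.55 (SE 0.33). Cyclin E2 (Ccne2) was the only member near 0 (0.02, SE 1.09), with 0 reads in KO mouse 3 and 2.02 to 2.49 FPKM in the other KO mice, against 0.331, 1.94 and 1.31 FPKM in control mice. The transcription factors E2f1 and E2f2 had log2 fold changes of 0.39 and 0.83, and control mouse 2 was above the other controls for both.

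The 7 mitotic cyclins and kinases had a median log2 difference of 1.30. Cdk1, the kinase that drives entry into mitosis (chromosome 10, 69336635 to 69352938), was the most even in the controls, at 7.78, 8.26 and 7.97 FPKM, and lay at 21.8, 25.2, 17.5 and 15.1 FPKM in KO mice (1.28, SE 0.33, limma's adjusted p = 0.0721). Cyclin A2 (Ccna2, chromosome 3, 36564866 to 36572150), which acts in S phase and G2, lay at 5.04, 6.42 and 6.69 FPKM against 21.1, 29.8, 23.8 and 16.8 FPKM (1.88, SE 0.44, limma's adjusted p = 0.0595). Cyclin B1 (Ccnb1, chromosome 13, 100778650 to 100786570) lay at 2.00, 6.65 and 5.55 FPKM against 8.22, 31.0, 22.9 and 16.5 FPKM (2.04, SE 0.58, limma's adjusted p = 0.0993). Each of these 3 genes had all KO libraries above all controls. The polo-like kinase Plk1 (chromosome 7, 122159437 to 122169875), which acts on centrosomes and kinetochores, did not overlap either, at 10.1, 13.1 and 10.5 FPKM against 21.0, 37.7, 29.5 and 26.0 FPKM (1.31, SE 0.38, limma's adjusted p = 0.108). Cyclin B2 (Ccnb2) did not overlap either (8.99 to 16.4 FPKM against 22.1 to 44.7 FPKM). The Aurora kinases Aurka and Aurkb, of the spindle poles and of the centromere, had log2 fold changes of 1.08 and 1.16 with KO mouse 3 inside the control range. Without the 2 libraries with few detected genes Aurka reached 1.58 and passed the adjusted threshold (limma's adjusted p = 0.0403).

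**Figure D3:**
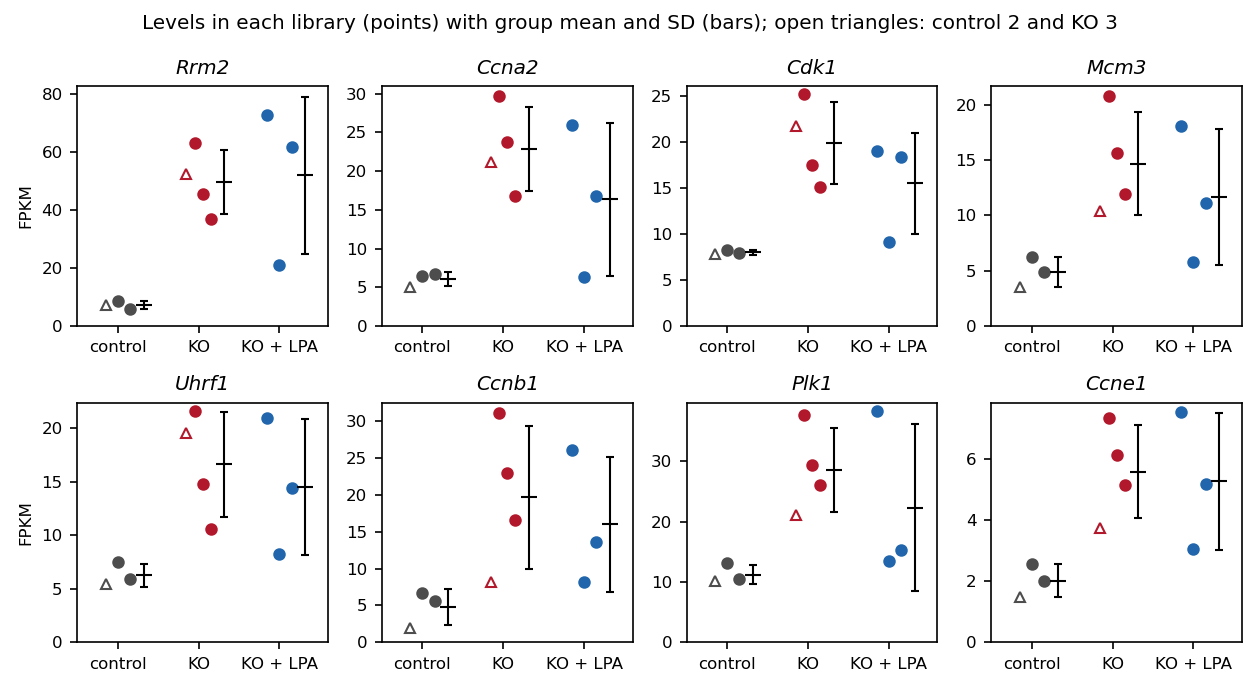
FPKM (y axis, linear from 0) of the 8 members with the smallest adjusted p in KO against control, by group (x axis), with each library as a point, open triangles for control mouse 2 and KO mouse 3, and black bars for the group mean ± SD. KO points lie above all control points in each panel, and KO + LPA mouse 4 is the lowest KO + LPA point in each, at 21.1 FPKM for Rrm2 and 6.28 FPKM for Ccna2.

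Spindle checkpoint and anaphase genes had a median of 1.04 over 5 genes, and none was free of overlap. Bub1 and Bub1b, checkpoint kinases that hold anaphase until chromosomes are attached, had log2 fold changes of 1.54 and 0.78. Ube2c and Cdc20, the conjugating enzyme and the activator of the anaphase-promoting complex (APC/C), and the survivin gene Birc5 were split by library. Ube2c lay at 48.0, 18.7 and 19.4 FPKM in the controls against 103, 49.5, 39.4 and 40.6 FPKM in KO mice, and Birc5 at 29.8, 9.21 and 11.9 FPKM and at 68.0, 26.8, 19.3 and 22.6 FPKM. In both genes the libraries of control mouse 2 and KO mouse 3 were the highest of their groups. Cdc20 went the other way. Control mouse 2 at 4.19 FPKM lay below the 12.8 and 14.2 FPKM of the other controls. KO mouse 3 at 7.64 FPKM lay below these controls and below the 38.1 to 44.2 FPKM of the other KO mice. Reads on Cdc20 may not have been told apart by strand from those of Elovl1, an overlapping gene on the opposite strand with more reads.

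The 8 spindle, kinetochore and chromosome genes had a median of 1.15. Kif20a, a kinesin of the midzone needed for cytokinesis, had the largest fitted change of the class, 2.76 (SE 1.04), but it had 0 reads in control mouse 2 and 0.512 FPKM in KO mouse 3 and shared its place with the more abundant Cdc23 on the opposite strand. Its other KO libraries lay at 4.85, 4.36 and 2.25 FPKM, above 0.601 and 0.512 FPKM in control mice 4 and 5. Mki67, the proliferation antigen that coats mitotic chromosomes, did not overlap between groups (10.6, 6.66 and 5.49 FPKM against 19.3, 18.6, 18.3 and 10.9 FPKM), and neither did Cenpe and Cenpf of the kinetochore, Nusap1 and Tpx2 of the spindle. Top2a, the topoisomerase that untangles chromosomes, lay at 8.76, 11.3 and 8.66 FPKM against 10.4, 28.7, 31.3 and 21.9 FPKM, with only KO mouse 3 inside the control range. Kif11, the kinesin that separates the spindle poles, had KO mouse 3 at 0.891 FPKM, below every control, and the other KO mice at 5.77 to 11.5 FPKM. The transcription factors of this class, Foxm1 and Mybl2, had log2 fold changes of 1.43 and 1.39. Mybl2, which encodes B-MYB, reached 2.17 when those of control mouse 2 and KO mouse 3 were left out, since control mouse 2 (2.80 FPKM) was above and KO mouse 3 (1.73 FPKM) below the rest of its group.

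The libraries that stand apart set much of the spread. Without control mouse 2 and KO mouse 3, every KO library lay above every control library for 45 of 45 genes, against 35.5% of all genes tested in that comparison of 3 with 2 libraries, and 2 of 45 genes (Rrm2 and Aurka) passed the adjusted threshold against 2.56%. Without KO mouse 3 alone, which also went against its label, 41 of 45 genes did not overlap, against 30.9%. The 2 libraries set against each other gave KO mouse 3 above control mouse 2 for 39 of 45 genes (21 of 23 and 18 of 22), against 48.5% of all genes tested. The 6 exceptions were Ccne2, Cdc6, Aurka, Bub1b, Kif11 and Mybl2. Control mouse 2 was below both other controls for 33 genes and above both for 9, which were E2f1, E2f2, Aurka, Ube2c, Birc5, Cenpe, Tpx2, Mki67 and Mybl2. The order of the controls was not counted over all genes, and control mouse 2 had the lowest scale of all libraries (0.6225). Scaling each library by the median of its gene ratios took the median of all genes from 0.29 to 0.04 and the class medians to 1.00 and 0.97, so that the members stayed about 1 log2 unit above all genes. On the recovered reads, edgeR's quasi-likelihood test called 2 of 45 genes (Rrm2 and Ccnb1), with adjusted p-values of 0.0182 and 0.0474, where 1.55% of the 13594 genes it tested were called as higher. DESeq2 called 11 of 45 (Rrm2, Ccne1, Mcm3, Mcm4, Mcm5, Hells, Ccna2, Ccnb1, Ccnb2, Bub1 and Kif20a), where 4.93% of the 15311 genes it gave an adjusted p were called as higher.

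**Figure D4:**
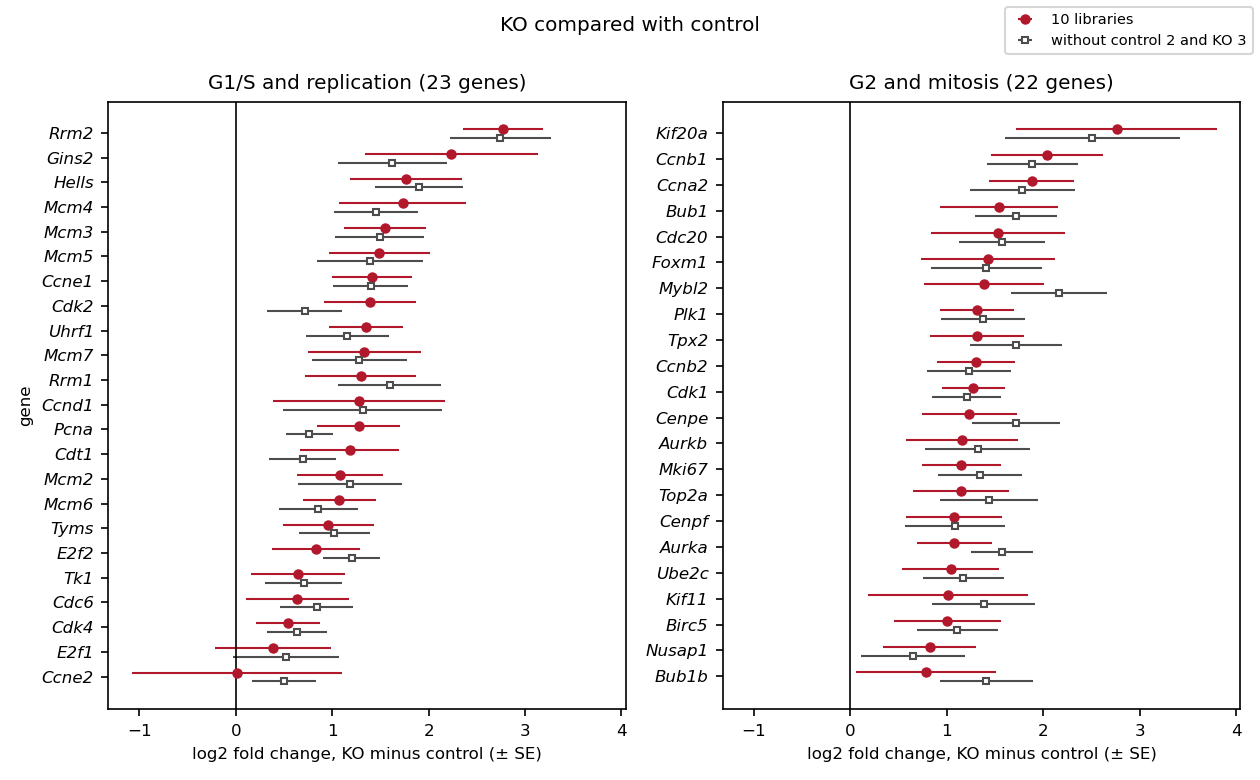
Log2 fold change of KO against control (x axis, ± SE) for each gene (y axis), from all 10 libraries (red circles) and without control mouse 2 and KO mouse 3 (open squares). All 45 circles lie above 0, from 0.02 for Ccne2 to 2.78 for Rrm2, and squares of G2 and mitosis genes lie mostly to the right of the circles (medians 1.41 and 1.25).

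The size of the difference was compared between G1/S and replication genes and mitotic genes. With all libraries their medians were 1.28 and 1.25, and without control mouse 2 and KO mouse 3 they were 1.18 and 1.41, so the order of the classes turned with these libraries. Without the G1/S regulators the first class had a median of 1.31, and without Ccna2, Mki67, Top2a and Mybl2, which also act before mitosis or across phases, the second had 1.25. As summed levels the G1/S and replication genes lay at 118, 217 and 184 FPKM in control mice 2, 4 and 5 against 306, 546, 406 and 347 FPKM in KO mice 3, 5, 6 and 7. The G2 and mitosis genes lay at 169, 147 and 136 FPKM and at 340, 453, 378 and 319 FPKM. Each class was thus higher in all 4 KO libraries than in all 3 control libraries. The ratio of the mitotic to the replication sum was 1.44, 0.679 and 0.739 in control mice and 1.11, 0.831, 0.931 and 0.921 in KO mice. The 2 libraries with few detected genes had the highest ratio of their group, and among the other libraries both controls lay below all 3 KO mice. Pcna made up 17.0 to 60.8 FPKM of the first sum in control mice, and Ube2c and Birc5 raised the second in control mouse 2.

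**Figure D5:**
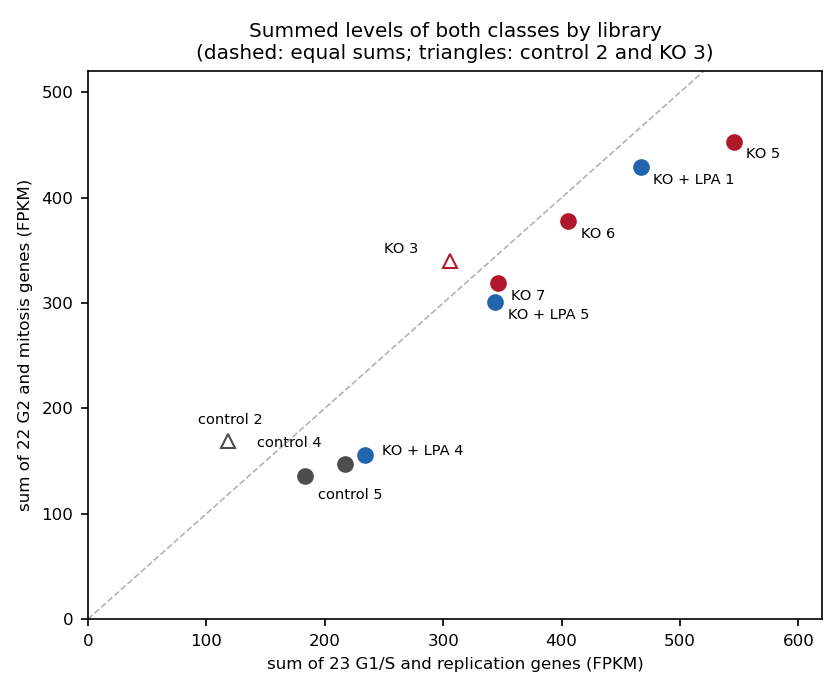
Summed FPKM of the 22 G2 and mitosis genes (y axis) against that of the 23 G1/S and replication genes (x axis), a point for each library, coloured by group, with open triangles for control mouse 2 and KO mouse 3 and a dashed line at equal sums. The controls and KO + LPA mouse 4 (234 and 156 FPKM) lie at the lower left, and only the triangles lie above the line.

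Genes of the same machinery outside the 45 were described from lists chosen with earlier results of these data known. Of 49 other S phase genes tested, 0 passed the adjusted threshold in limma (21 at an unadjusted p under 0.05, 1 called by edgeR and 12 by DESeq2, against 17.6%, 3.82% and 11.5% of all genes in either direction) and 48 had a log2 fold change above 0, with a median of 1.05. The largest were Clspn, an adaptor of the replication checkpoint, at 2.81 (limma's adjusted p = 0.0601) and Dbf4, the activator of the origin-firing kinase CDC7, at 2.24, which were 2.16 and 1.64 without control mouse 2 and KO mouse 3. Of 62 other G2 and mitosis genes, 60 were above 0, and the median was 1.34. An unadjusted p under 0.05 was found for 41, edgeR called 4 and DESeq2 called 19. In limma 5 passed as higher, against 1.13% of all genes tested, and 0 as lower. Those that rose were Trip13, which remodels checkpoint proteins (2.59, limma's adjusted p = 0.0272), the centrosomal kinase gene Nek2 (2.22), the cohesin protector Sgo1 (1.83), the centromeric histone gene Cenpa (1.45) and Cdca3 (1.30). Ect2 and Ckap2 had larger fitted values (3.10 and 2.79), with 0 reads in control mouse 2, and had 2.03 and 1.37 without that library and KO mouse 3. Trip13 lay at 0.599, 1.52 and 2.54 FPKM in the controls against 7.05, 11.4, 9.67 and 6.94 FPKM in KO mice, without overlap. These calls were near the threshold, and in 10 fits that each left out 1 mouse they were lost in 6 for Trip13, 7 for Nek2, 9 for Sgo1, 9 for Cenpa and 10 for Cdca3, with limma's adjusted p up to 0.188. Every KO library lay above every control for 21 of 50 other S phase genes and 34 of 62 other G2 and mitosis genes, against 11% of all genes tested.

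Inhibitors and other regulators were described in the same way. Of 12 cyclin-dependent kinase inhibitors and pocket proteins, 0 passed the adjusted threshold in limma, 0 had an unadjusted p under 0.05 and edgeR and DESeq2 called 0. Their median was 0.03, 6 of 12 were above 0, with Rbl1 at 1.66 and Cdkn2a at 1.17, both with 0 reads in at least 1 control library. Without control mouse 2 and KO mouse 3 the median was -0.05 and Rbl1 was at 0.41. Of 14 other G1 cyclins, kinases, E2F and MYC factors 0 passed in limma (2 at an unadjusted p under 0.05, 0 in edgeR and 1 in DESeq2) and the median was 0.59, with Tfdp1 at 2.66 (0 reads in control mouse 2, and 1.44 without both libraries) and E2f8 at 1.71. The 5 genes of the MuvB core had a median of 0.77, with Lin54 at 2.02 and Lin9 at 0.99. Without control mouse 2, where Lin54 was at 0.217 FPKM against 3.01 and 2.34 FPKM in the other controls, and KO mouse 3, the median was 0.36 and Lin54 was at 1.18. The 15 APC/C subunits, which are needed in mitosis but are made in most cells, had a median of 0.60, with Cdc23 at 1.90 and Anapc13 at -1.12. Cdc23, which shares its place with Kif20a on the opposite strand, had 0 reads in control mouse 2 and 0.221 FPKM in KO mouse 3. Without both libraries the median was 0.43, Cdc23 was at 1.54 and Anapc13 at -1.30. In each of these last lists 0 genes passed in limma, edgeR or DESeq2, and 1 had an unadjusted p under 0.05. Over all genes, 17.6% had an unadjusted p under 0.05 in either direction, and edgeR and DESeq2 called 3.82% and 11.5%.

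Markers of some cell types differed between control and KO mice along with the cell cycle genes. The 26 enterocyte markers summed to 45989 to 60817 FPKM in control mice and 23067 to 41937 FPKM in KO mice, and Lct and Slc2a5 (2 genes, named after their values were seen) passed as lower. Their median difference was -0.77 (log2), with 7 at an unadjusted p under 0.05, 5 called by edgeR and 9 by DESeq2. The 22 leukocyte markers summed to 392 to 540 FPKM in control mice, 26.9 to 165 FPKM in KO mice and 63.8 to 80.5 FPKM in KO + LPA mice, and 4 of 21 tested genes (Cd7, Cd52, Cd79a and Gzma, named in the same way) passed as lower in KO mice. The median difference of the leukocyte markers was -1.97 (log2), with 13 at an unadjusted p under 0.05, 3 called by edgeR and 9 by DESeq2. Crypt stem cell markers (15 genes) overlapped, at 77.3 to 204 FPKM in control mice and 58.2 to 166 FPKM in KO mice, with a median difference of -0.11 (log2). Their count of genes passing in limma was 0, with 1 at an unadjusted p under 0.05, 0 in edgeR and 2 in DESeq2. Nor did limma call a gene among 9 goblet, 8 Paneth, 9 enteroendocrine, 9 tuft and 13 stroma and endothelium markers (10 of the last tested), whose medians were -0.15, -0.40, -0.21, -1.09 and -0.52. Without control mouse 2 and KO mouse 3 these medians were 0.27, -0.91, 0.25, -1.10 and -0.28, so the goblet and enteroendocrine lists turned direction. At an unadjusted p under 0.05 there were 2, 0, 2, 4 and 0 genes in these lists, edgeR called 1 tuft marker and none of the others, and DESeq2 called 3, 0, 1, 4 and 0. Of all 15729 genes tested, limma called 316 in either direction and 17.6% had an unadjusted p under 0.05. Of the genes given an adjusted p, edgeR called 3.82% and DESeq2 11.5%. No marker was at 0 in every library of a group. The part of these differences in the levels of the cell cycle genes was not tested.

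LPA treatment was compared with vehicle among KO mice, where the question is whether LPA shifts cell division in the knockout epithelium. No member passed the test. Of 45 genes, 0 passed an adjusted p of 0.05 in limma, as 0% of all genes tested did, and 0 had an unadjusted p under 0.05, against 2.92% of all genes tested. edgeR and DESeq2 on the recovered reads also called 0 members. The log2 fold change of KO + LPA against KO was below 0 for 41 of 45 genes (20 of 23 and 21 of 22), against 39.3% of all genes tested, and the class medians were -0.28 and -0.41, against 0.11 over all genes. The largest differences were those of Ccnd1 (-1.45, SE 0.89), Kif20a (-1.20, SE 1.04) and Mcm2 (-0.68, SE 0.45). Rrm2 lay at 49.5 ± 11.1 FPKM in KO mice (SD, n = 4) and 51.9 ± 27.2 FPKM in KO + LPA mice (SD, n = 3), with a log2 fold change of -0.09 (SE 0.42).

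The 3 KO + LPA mice differed strongly among themselves. The summed G1/S and replication genes were at 467, 234 and 344 FPKM in mice 1, 4 and 5, and the summed G2 and mitosis genes at 429, 156 and 301 FPKM. Mouse 1, which went against its label of male and whose labels name both vehicle and LPA, lay among the KO mice. Mouse 4 lay close to the controls. Ccnd1 was at 12.6 FPKM in mouse 1 and at 2.04 and 1.59 FPKM in mice 4 and 5, where the KO mice spanned 2.49 to 19.9 FPKM. Kif20a was at 3.92, 0.6 and 0.295 FPKM, and Mcm2 at 16.0, 4.17 and 6.21 FPKM. In each of the 3 genes mouse 1 was the highest. Mouse 1 was the highest of the group for 38 of 45 genes and mouse 4 the lowest for 39. This order was not counted over all genes, and the libraries differed in scale (1.263, 1.055 and 1.057 in mice 1, 4 and 5). Mouse 1 lay above every control for 41 genes, against 48.1% of all genes tested, mouse 4 for 12 genes, against 36.8%, and mouse 5 for 33 genes, against 39.3%. Mouse 4 was below every KO library for 26 of 45 genes, against 11.6% of all genes tested, mouse 5 for 9, against 7.47%, and mouse 1 for 1, against 4.53%. Without KO mouse 3 these counts were 44, 29 and 2, against 39%, 41.6% and 15.2% of all genes tested. Without KO + LPA mouse 4 the class medians against KO were 0.0028 and -0.039, and without KO mouse 3 and KO + LPA mouse 1 they were -0.84 and -1.09, so the difference turned on which mice were included. Enterocyte markers summed to 38068, 66428 and 44935 FPKM and crypt stem cell markers to 160, 57.4 and 71.1 FPKM in mice 1, 4 and 5, so mouse 4 had the highest enterocyte sum, the lowest stem cell sum and the lowest cell cycle sums. Paneth markers summed to 4285, 1114 and 2162 FPKM in these mice, against 3712 to 6608 FPKM in KO mice, and 0 of 8 had a log2 fold change above 0 against KO (median -1.38, 6 at an unadjusted p under 0.05). Goblet markers summed to 11901, 21712 and 17467 FPKM, against 7277 to 11904 FPKM in KO mice, and 9 of 9 were above 0 (median 0.64, 2 at an unadjusted p under 0.05). Enteroendocrine markers summed to 397, 691 and 1110 FPKM, against 278 to 840 FPKM in KO mice, so only mouse 5 lay above that range. Of these markers 8 of 9 were above 0 (median 0.56, 1 at an unadjusted p under 0.05). Stroma and endothelium markers were low throughout, at 6.48, 14.2 and 14.9 FPKM against 3.14 to 5.88 FPKM in KO mice, with 9 of 10 above 0 (median 1.41, 2 at an unadjusted p under 0.05). Of all 15729 genes tested in this comparison, 9547 were above 0 and 2.92% had an unadjusted p under 0.05. In limma, edgeR and DESeq2 no gene of these 4 lists passed the adjusted threshold. The part of these markers was not tested.

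The control mice also served in the KO comparison. Against them, the KO + LPA mice had medians of 0.94 for G1/S and replication genes and 0.83 for G2 and mitosis genes. The median over all genes tested was 0.41. Without KO mouse 3 and KO + LPA mouse 1, these 3 medians were 0.53, 0.47 and 0.33. Without control mouse 2 and KO mouse 3, they were 0.56, 0.82 and 0.13. Again Rrm2 alone passed the adjusted threshold (1 of 45 genes, against 1.54% of all genes tested as higher). It was at 72.7, 21.1 and 61.8 FPKM in KO + LPA mice 1, 4 and 5, above the 8.5 FPKM of the highest control in each (2.68, SE 0.44, limma's adjusted p = 0.0144). Without KO mouse 3 and KO + LPA mouse 1, Rrm2 had a log2 fold change of 2.35 and missed the threshold (limma's adjusted p = 0.0565). It also missed it without control mouse 5 (0.0726), without KO + LPA mouse 1 (0.0604) or without KO + LPA mouse 5 (0.0806). Ccnb1 and Gins2 followed with 1.74 (SE 0.62) and 1.61 (SE 0.95), but Gins2 had 0 reads in control mouse 2 and was at 0.53 without that library. All 3 KO + LPA libraries lay above all 3 control libraries for 11 of 45 genes (5 of 23 and 6 of 22), against 20.5% of all genes tested, and KO + LPA mouse 4 lay above every control for only 12. Fragments on the 45 genes were 0.182% ± 0.0783 of reads in KO + LPA mice (SD, n = 3), with 0.26% in mouse 1, 0.104% in mouse 4 and 0.183% in mouse 5.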

How the data were processed

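RNA of jejunal epithelial cells from 10 mice was sequenced from poly(A)-selected libraries, and samples were grouped by their labels. The submitters' processing notes name STAR 2.5, TopHat, HTSeq 0.6.1, DESeq2 and the GRCm38 (mm10) build, with no role or order. The authors deposited FPKM for 35275 genes, and no scaling between libraries is stated. The authors also deposited read counts of 9 genes. The other deposited files hold the authors' own comparisons (fold changes, p-values and enriched pathways) and were not used here. FPKM times gene length gave whole reads (within 0.05 reads) for 100% of values. The recovered reads equalled 63 of 63 deposited counts, all of them of KO and KO + LPA libraries. Those of the control libraries were not checked in this way.

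Differences were tested on log2(FPKM + 0.1) over 15729 genes that averaged 0.1 FPKM or more, in 1 limma 3.58.1 model (R 4.3.3) of the 3 groups with a trended variance, two-sided, with Benjamini-Hochberg adjustment over all genes tested. A fold change on this scale understates that of genes low in all libraries, and it can overstate that of a gene with 0 reads in a library. Alternatives were other pseudocounts, filters and scalings, a replicate block, fits of 2 groups, leaving out each mouse, and edgeR 4.0.16 and DESeq2 1.42.0 on the recovered reads. Fits without control mouse 2 and KO mouse 3 under other tools, and without KO mouse 3 and KO + LPA mouse 1, were added after seeing the data. Code was tested on simulated data. A count of 0 allows up to 3 reads. The labels describe independent preparations.

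The members and lists were chosen with earlier results of these data known. By rule, values per library are given for called members and for the 3 largest differences in the other comparisons. Where fewer than 8 were called in KO against control, they are given for the 8 smallest adjusted p-values. Ube2c, Birc5, Cdc20, Mki67, Top2a, Ccne2 and Pcna are among the members shown per library outside this rule. Of the lists, called genes and the 2 largest differences are named. Plk1 holds the CHR letters past the printed stretch, so the next gene is shown. The labels of KO + LPA mouse 1 name both vehicle and LPA, and its title placed it. In 3 cases a list symbol was matched by gene identifier, since the table uses an older symbol. No column of other samples was present.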

Additional observations from a re-analysis of the deposited data

Results flagged for a closer look

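In the KO group of 4 mice, 4 of 45 members had a library whose gap to its nearest neighbour exceeded Dixon's critical value, where chance flags about 1 in 20 groups. KO mouse 3 was high for Ube2c (103 FPKM, with 39.4 to 49.5 FPKM in the other KO mice) and for Birc5 (68.0 FPKM, with 19.3 to 26.8 FPKM). KO mouse 3 was low for Cdc20 (7.64 FPKM, with 38.1 to 44.2 FPKM). KO mouse 7 was low for Mki67 (10.9 FPKM, with 18.3 to 19.3 FPKM). The 3 flags of KO mouse 3 fall on a library with 12601 detected genes and 18.0% mitochondrial reads, and the part of these features in the flags was not tested. The groups of 3 mice were not screened in this way.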

How the results depend on the processing

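Both class medians of KO against control stayed above 0 under every alternative run, between 0.89 and 1.56 for G1/S and replication and between 1.10 and 1.5 for G2 and mitosis when each mouse was left out in turn. The number of members called in KO against control was 1. It was 2 with a filter at a mean of 1 FPKM, 2 after median-ratio scaling and 4 after quantile normalization. In edgeR it was 2 and in DESeq2 11. Without control mouse 2 and KO mouse 3 it was 2 (4 with median-ratio scaling and 8 in edgeR). Without KO mouse 3 and KO + LPA mouse 1 it was 4. With each mouse left out it was 0 to 2 (0 without control mouse 5, 2 without KO + LPA mouse 4). Calls among all genes in this comparison were 316 of 15729 tested. They were 188 without a filter and 441 with a filter at a mean of 1 FPKM, where other numbers of genes were tested. After median-ratio scaling they were 598, after quantile normalization 804, and from the 2 groups only 50. edgeR called 519 of 13594 genes and DESeq2 1768 of 15311. Without control mouse 2 and KO mouse 3 they were 778 (962 with median-ratio scaling and 1244 in edgeR). Without KO mouse 3 and KO + LPA mouse 1 they were 316, and with each mouse left out 44 to 403. In KO + LPA against KO, calls among all genes were 0 in limma and 5 in DESeq2. The member call in KO + LPA against control (1) was 0 from the 2 groups only and 0 without KO mouse 3 and KO + LPA mouse 1. It was 3 in DESeq2 and 4 in edgeR without control mouse 2 and KO mouse 3. With each mouse left out it was 0 to 1 (0 without control mouse 5, KO + LPA mouse 1 or KO + LPA mouse 5). Calls among all genes there were 365 of 15729 tested. They were 626 after quantile normalization, 190 from the 2 groups only and 1471 in DESeq2. Without control mouse 2 and KO mouse 3 they were 1346 (1471 with median-ratio scaling and 1781 in edgeR). Without KO mouse 3 and KO + LPA mouse 1 they were 304, and with each mouse left out 73 to 702. The causes of these shifts were not tested.

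The replicate block took the class medians of KO + LPA against KO to -1.17 and -1.36 and that of G1/S and replication in KO + LPA against control to 0.23. In this fit a mouse number found in no other group informs no group difference, so its KO values rest on KO mouse 5 alone. Counts of calls are therefore not given for it. Same-numbered mice of different groups had correlations of their deviations of 0.104, 0.30, -0.356 and -0.214. These were not set beside those of differently numbered mice, so they cannot decide whether the numbers pair the mice. With each mouse left out, the medians of KO + LPA against KO ran from -0.56 to 0.0028 and from -0.73 to -0.039, and those against control from 0.53 to 1.19 and from 0.47 to 1.21.

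Ccne2 in KO against control reversed to -0.69 with a pseudocount of 0.01, -0.34 after median-ratio scaling and -0.20 after quantile normalization, and to between -0.64 and -0.31 without control mouse 2, KO mouse 5, 6 or 7 (-0.64, -0.40, -0.39 and -0.31), with 1.16 as the highest of such values (without KO mouse 3). Rbl1 reversed to -0.074 without control mouse 2 (2.54 without control mouse 4), and Gins2 in KO + LPA against control to -0.0085 with the replicate block. With 10949420 reads in the shallowest library, genes under 1 FPKM rest on few reads, and with 3 or 4 mice a group 44 of 45 members were uncalled in KO against control at a class median of 1.28 and 1.25.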
